A study of Mus musculus with 1931 samples.

Results

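The genes described here encode the core of the adherens junction. They are 4 classical cadherins (Cdh1, Cdh2, Cdh3 and Cdh6), 4 catenins (Ctnna1, Ctnnb1, Ctnnd1 and Jup) and the adhesion molecule Epcam, 9 of the 20999 genes in the deposited table, chosen by name. Their levels were compared between the compartments of Rosette-to-Lumen stage embryoids (RtL-embryoids) and the matching cells grown in 2D. RtL-embryoids are aggregates of 3 mouse embryonic stem cell (ESC) lines that sort themselves into layers resembling the early postimplantation embryo, and adhesion genes are of interest in such a system because cells that differ in their adhesion molecules can separate from each other.

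Classical cadherins span the cell membrane and bind the same or a related cadherin on the neighbouring cell in the presence of calcium. Inside the cell, beta-catenin (Ctnnb1) or its relative plakoglobin (Jup) holds the cadherin tail, alpha-catenin (Ctnna1) couples the complex to actin, and p120-catenin (Ctnnd1) keeps the cadherin at the surface. Beta-catenin also carries the Wnt signal to the nucleus. E-cadherin (Cdh1) joins the cells of the early embryo into epithelia, whereas N-cadherin (Cdh2) replaces it in cells that leave an epithelium at gastrulation. P-cadherin (Cdh3) was named for the placenta and K-cadherin (Cdh6) for the kidney, and Epcam is an epithelial membrane protein that acts in adhesion without calcium.

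The embryoids were made from Kermit ESCs, which carry GFP driven by the Oct3/4 promoter and carry no inducible transgene, from 5-Factor ESCs with doxycycline-inducible Cdx2, Tfap2c, Eomes, Gata3 and Ets2, and from mCherry-transduced iGATA6 ESCs with doxycycline-inducible Gata6. Transgenes were induced for 3 days and left without doxycycline for 1 more day, and structures with the right layers were picked by hand, pooled, dissociated and sorted by GFP, mCherry and the surface protein CD40. The 2D cultures were 2i/LIF ESCs (sorted Kermit ESCs without doxycycline), induced trophoblast stem cells (iTSC, from 5-Factor ESCs) and induced extraembryonic endoderm cells (iXEN, from iGATA6 ESCs), the latter 2 with the same doxycycline schedule. Each culture was 1 sample on 1 plate, and the embryoids were 1 pool spread over plates 3, 4 and 5, so that no test over replicates was possible, no p-value was computed, and plate values are technical splits. The embryoids were grown in reconstructed embryo medium after 1 day in ESC medium. The ESCs were in ESC medium with 2i/LIF, iTSC in partly conditioned TSC medium with FGF4 and heparin, and iXEN in XEN cell medium. Compartment, ESC line and transgene coincide in the embryoids. Medium, 3D or 2D growth and plate coincide between embryoids and cultures, and ESC line, transgene, medium and plate coincide among the cultures. None of these can be told apart.

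In the embryoids the labels give the well but not the compartment. Well columns 1 to 8 (Epi block), 9 to 16 (VE block, visceral endoderm) and 17 to 24 (ExE block, extraembryonic ectoderm) were therefore checked against 7 markers each, and each list had all 7 genes at their highest mean in its own block. The analysis used the 1406 of 1931 wells in which 2500 or more genes were above 0, and none of them shared its values with another well. The Epi, VE and ExE blocks held 22.3%, 22.4% and 25.1% of these cells, ESC 10.1%, and iTSC and iXEN 10% each. With each marker standardised, the own list led in all but 4 cells of the Epi block and all but 4 of the VE block. In the ExE block the VE list led in 26 cells and the Epi list in 12, the ExE list led in the others, and 4 of the ExE markers (Cdx2, Tfap2c, Eomes and Gata3) are also transgenes of the 5-Factor line. By raw sums of the lists the ExE list led in 60.1% of the ExE block and 68.8% of iTSC, and the Epi list in most of the rest. Parietal endoderm markers, a list of 8 genes, summed to 86.001 in the VE block and 136.6 in iXEN, on the scale explained next. The sums were 1.48 in the Epi block, 9.30 in the ExE block, 6.59 in ESC and 16.2 in iTSC. Sparc alone had 59.9 in the VE block and 105.7 in iXEN. Among the blocks, 4 of the 8 genes had their highest mean in the VE block and 4 in the ExE block. Fibroblast and giant cell lists stayed at or below 0.0478 in each of the 6 groups. The median number of genes per cell lay between 4823 and 5396 in the blocks and between 8537 and 9093.5 in the cultures.

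Levels are mean TP10k, that is TPM rescaled to sum to 10000 over the deposited genes of each cell. TPM is corrected for transcript length, so that different genes can be set side by side. A gene counts as detected in a cell from 1 TPM, and shares of cells carry exact 95% binomial intervals, which cover counting error only.

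Cdh1 was the main cadherin of each of the 6 groups, and its level was highest in the ExE block and lowest in the Epi block. It averaged 0.341 TP10k in the Epi block (0.351, 0.342 and 0.330 on plates 3, 4 and 5), 0.666 in the VE block (0.681, 0.579 and 0.743) and 1.63 in the ExE block (1.77, 1.44 and 1.66). The plates of the 3 blocks did not overlap. The ExE block was 4.77-fold above the Epi block and 2.44-fold above the VE block, and the VE block was 1.95-fold above the Epi block. In 2D the spread was small, with 0.550 in ESC, 0.627 in iTSC and 0.671 in iXEN, and the iTSC and iXEN values lay within the plate range of the VE block. The order of the levels was thus ExE block first and Epi block last. Between them stood iXEN, VE block and iTSC, without a difference beyond the plate range, and then ESC. The ESC level lay just under the lowest plate of the VE block (0.579). With a single plate per culture, its step below iTSC is not set apart from plate spread. Single cells differed widely: the quartiles of the ExE block were 0.670 and 2.45 TP10k around a median of 1.28, and those of the Epi block 0 and 0.564 around 0.201. Cdh1 was detected in 65.9% of the Epi block (interval 60.4 to 71.2%), 90.8% of the VE block (87.05 to 93.7%) and 96.3% of the ExE block (93.8 to 98.02%), and in every ESC. In cells with 5000 to 8000 genes the shares of the 3 blocks were 81.9% (74.4 to 87.9%), 95.5% and 97.2%, so that the gap was smaller among these deeper cells, while the means kept their order (0.390, 0.686 and 1.57 TP10k).

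Cdh2 was low throughout, with its highest level in the ExE block. The ExE block averaged 0.0842 TP10k (0.0883, 0.0898 and 0.0740 on plates 3, 4 and 5) and the Epi block 0.0201 (0.0261, 0.0116 and 0.0231), a 4.18-fold difference with no overlap of plates. The VE block averaged 0.00928, of which plate 3 (0.0246) held nearly everything, since plates 4 and 5 had 0.00118 and 0.000640 and a single cell reached 2.11 TP10k. ESC had 0.0156 and iTSC 0.0257, both within the plate range of the Epi block. Cdh2 was detected in 83 cells of the ExE block (23.5%, interval 19.2 to 28.3%), 24 of the Epi block (7.64%, 4.96 to 11.2%) and 7 of the VE block (2.22%, 0.898 to 4.52%). It was detected in 20.4% of ESC and 20.6% of iTSC, but in 0 iXEN cells at this limit of 1 TPM, which allows a share of up to 2.13% at 3 counts and 2.58% by the exact interval. The endodermal groups thus had the lowest means in 3D and in 2D, although plate 3 of the VE block overlapped with the Epi block.

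Cdh3 had a narrower range. It averaged 0.0718 TP10k in the Epi block (0.0918, 0.0479 and 0.0769 on plates 3, 4 and 5), 0.0178 in the VE block (0.0213, 0.0239 and 0.00699) and 0.0404 in the ExE block (0.0361, 0.0626 and 0.0222). The VE block lay below the Epi block on each plate, by 4.04-fold in the pooled mean, whereas the ExE block overlapped with both. The 2D cultures had 0.0531 in ESC, 0.0772 in iTSC and 0.0568 in iXEN, all within the plate range of the Epi block. In the annotation (GRCm38, Gencode vM21) Cdh3 (chr8:106510891-106557297, plus strand) ends 46053 bases before Cdh1 (chr8:106603351-106670246, plus strand) begins, and the neighbours differed in their order over the blocks, since Cdh1 was lowest where Cdh3 was highest.

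Cdh6 separated the endodermal cells from the others. It averaged 0.0834 TP10k in the VE block (0.0843, 0.0764 and 0.0900 on plates 3, 4 and 5) and 0.135 in iXEN. The Epi block had 0.00267 and the ExE block 0.00596, with no plate above 0.0121, and ESC and iTSC had 0.000373 and 0.00224. Each plate of the VE block thus stood above all plates of the other blocks. No fold is given, since the low means rested on few cells: the Epi block had 0.00735, 0.000713 and 0.000185 on plates 3, 4 and 5 and a single cell at 0.627, and without the 4 cells not led by the Epi list its mean was 0.000681. The ExE block had 0.0121, 0.00101 and 0.00445. Cdh6 was detected in 39.7% of the VE block (interval 34.2 to 45.3%) against 5 cells of the Epi block (1.59%, 0.519 to 3.68%). In the cultures it was detected in 78.01% of iXEN (70.3 to 84.5%) against 0 of ESC. A count of 0 allows a share of up to 2.11% in ESC at 3 counts and 2.56% by the exact interval, and holds for the limit of 1 TPM, since 14 ESC had Cdh6 above 0. Of the 14 cells with Cdh6 in the ExE block, 7 were among the 26 cells in which the VE list led. The remaining 7 were among all the others, and the mean was 0.0413 TP10k in the 26 and 0.00315 in the others.

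**Figure D1:**
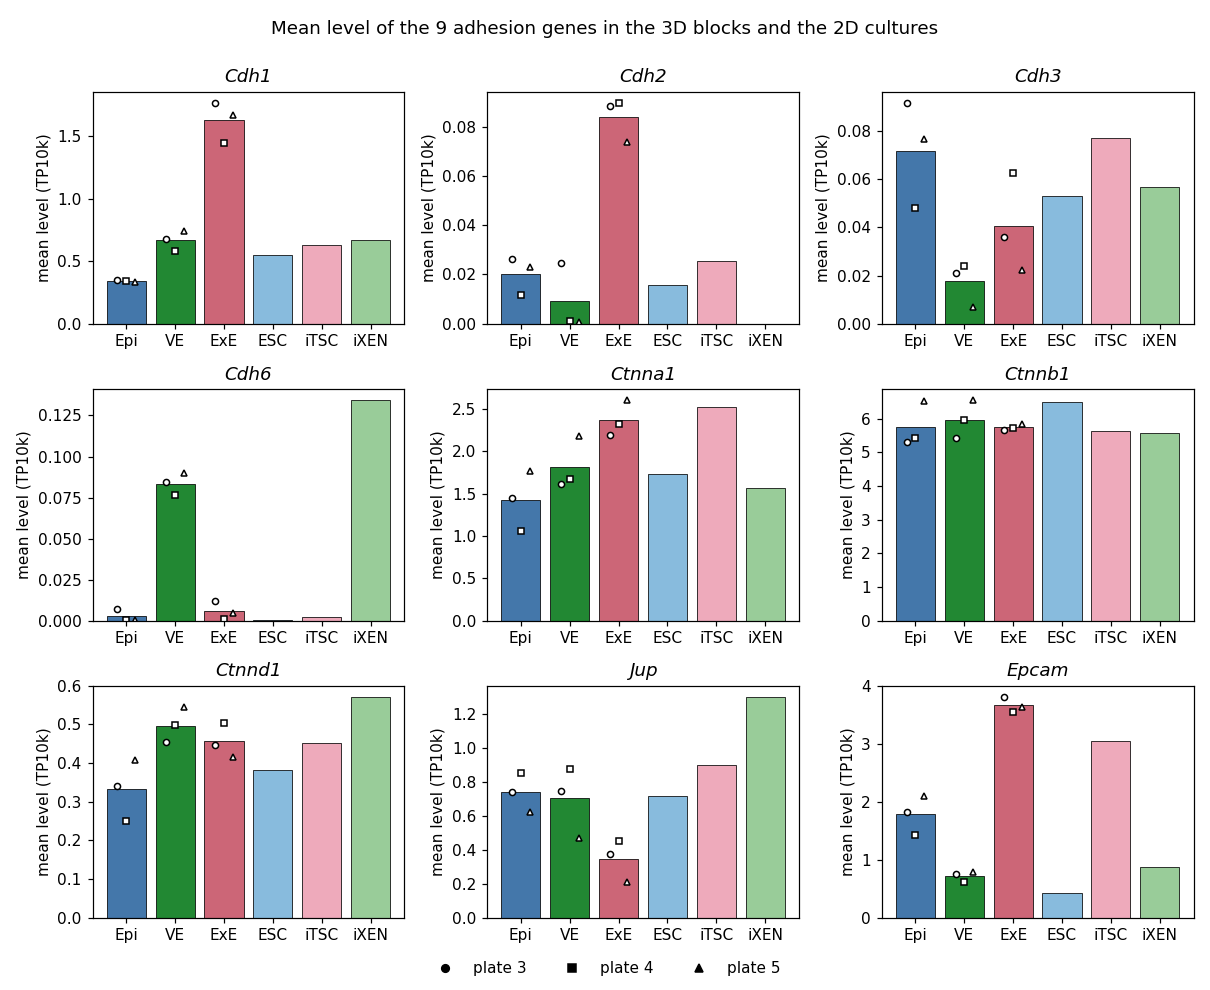
Mean level of each gene in TP10k (y axis, a separate linear scale from 0 for each gene) in the Epi, VE and ExE blocks and the ESC, iTSC and iXEN cultures (x axis). Bars are means over the kept cells and symbols the means on plates 3, 4 and 5. Cdh1, Cdh2 and Epcam stand highest in the ExE block, Cdh6 is high only in the VE block and iXEN, and Ctnnb1 stays between 5.59 and 6.50.

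Among the catenins, Ctnnb1 was by far the highest and the most even. It averaged 5.76 TP10k in the Epi block (5.32, 5.44 and 6.51 on plates 3, 4 and 5), 5.96 in the VE block (5.42, 5.97 and 6.57) and 5.75 in the ExE block (5.68, 5.74 and 5.84). The plate ranges overlapped in all 3 blocks, and ESC (6.50), iTSC (5.64) and iXEN (5.59) lay within the range of the VE block. Ctnna1 was second, with 1.43 in the Epi block (1.45, 1.06 and 1.77), 1.81 in the VE block (1.62, 1.67 and 2.19) and 2.37 in the ExE block (2.19, 2.33 and 2.61). On each plate the order was Epi, VE, ExE, although the plate ranges of the Epi and VE blocks overlapped. The trophoblast cells were the highest in 2D too, with 2.53 in iTSC against 1.73 in ESC and 1.57 in iXEN.

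Ctnnd1 and Jup were lower and differed in their order over the blocks. Ctnnd1 averaged 0.332 TP10k in the Epi block (0.341, 0.250 and 0.407 on plates 3, 4 and 5), 0.497 in the VE block (0.454, 0.498 and 0.546) and 0.456 in the ExE block (0.447, 0.505 and 0.415), with 0.382, 0.452 and 0.572 in ESC, iTSC and iXEN. The plates of the VE and ExE blocks overlapped and both stood above those of the Epi block. Jup averaged 0.741 in the Epi block (0.745, 0.855 and 0.622), 0.705 in the VE block (0.745, 0.877 and 0.469) and 0.349 in the ExE block (0.379, 0.453 and 0.209). The ExE block was thus the lowest on each plate, 2.13-fold below the Epi block, while the Epi and VE blocks overlapped. In 2D Jup was highest in iXEN (1.30), followed by iTSC (0.903) and ESC (0.718). It was detected in 40.2% of the ExE block (interval 35.1 to 45.5%) against 65.6% of the Epi block (60.1 to 70.8%) and 74.9% of the VE block (69.8 to 79.6%).

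Epcam had the widest range among the genes with a high level. It averaged 1.79 TP10k in the Epi block (1.84, 1.43 and 2.11 on plates 3, 4 and 5), 0.718 in the VE block (0.749, 0.626 and 0.783) and 3.68 in the ExE block (3.82, 3.55 and 3.65). The plates did not overlap: the ExE block was 2.05-fold above the Epi block, which was 2.50-fold above the VE block. ESC had 0.423 TP10k, the lowest level of the 6 groups, iXEN 0.885 and iTSC 3.06. Epcam was detected in 82.5% of the Epi block (interval 77.8 to 86.5%), 75.6% of the VE block (70.4 to 80.2%), 96.9% of the ExE block (94.5 to 98.4%), 86.6% of ESC (79.9 to 91.7%), 95.035% of iXEN (90.04 to 97.98%) and every iTSC cell. The quartiles of the ExE block were 1.67 and 5.20 TP10k and those of iTSC 1.77 and 4.13, so that the trophoblast groups overlapped over most of their range. The lower quartile of the Epi block (0.449) lay between the quartiles of ESC (0.120 and 0.557), and its upper quartile (2.45) lay above them.

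**Figure D2:**
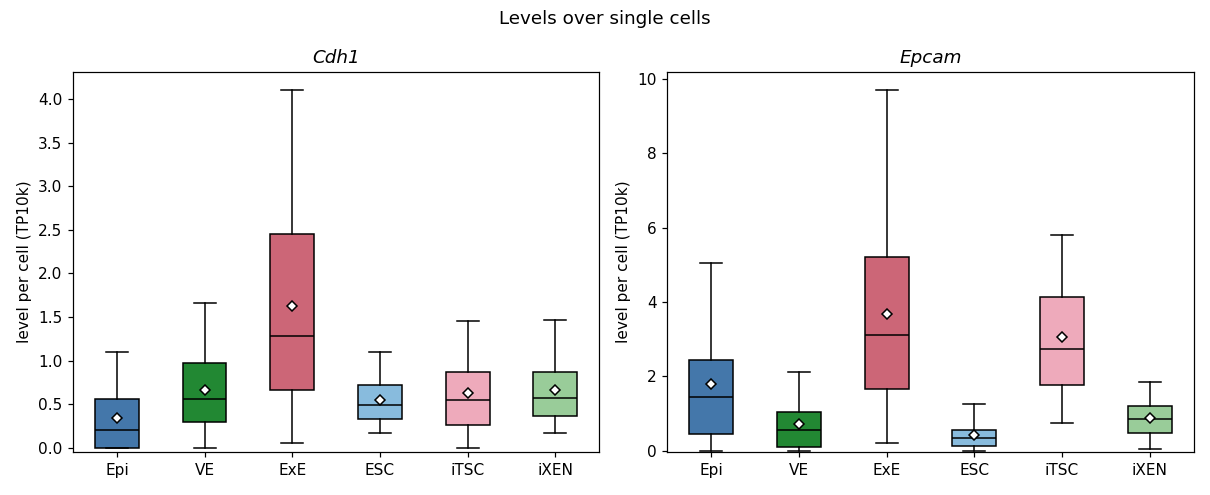
Level per cell of Cdh1 and Epcam in TP10k (y axis, linear) in the 6 groups (x axis). Boxes span the quartiles with a line at the median, whiskers reach from the 5th to the 95th percentile and diamonds mark means. For Cdh1 the ExE block stands apart (median 1.28), and for Epcam the ExE block (median 3.12) and iTSC (2.73) stand above the other 4 groups.

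The 250 bases before the start of Epcam and of Cdh6 are shown here because Cdh6 was higher and Epcam lower in the VE block than in the ExE block, each on all 3 plates. Both come from RefSeq (GRCm38.p6), run 5′ to 3′ on the strand of the gene, and lie at chr17:87635729-87635978 (plus strand) and chr15:13173676-13173925 (minus strand). Capitals mark CAGGTG on either strand (CACCTG on the other), the E-box letters that Snail and Zeb factors bind, and ACCGGT, the core of the sequence bound by Grainyhead-like factors, whose 2 strands read the same.
Epcam: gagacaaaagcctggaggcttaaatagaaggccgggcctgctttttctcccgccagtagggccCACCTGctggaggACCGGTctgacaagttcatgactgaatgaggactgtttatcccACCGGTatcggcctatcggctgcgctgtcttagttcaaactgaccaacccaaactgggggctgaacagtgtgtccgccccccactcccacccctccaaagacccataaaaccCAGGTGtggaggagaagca
Cdh6: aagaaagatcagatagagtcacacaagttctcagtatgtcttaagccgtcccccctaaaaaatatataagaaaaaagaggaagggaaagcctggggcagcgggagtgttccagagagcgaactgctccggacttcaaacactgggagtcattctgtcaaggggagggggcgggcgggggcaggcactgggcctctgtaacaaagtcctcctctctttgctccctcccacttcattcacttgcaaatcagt
The Epcam window held 2 of the E-box matches, the second at 19 bases before the start, and 2 ACCGGT matches between them, none of which overlapped, and the Cdh6 window held neither. Over the same 250 bases of 32851 promoters in the table, 17.2% held the E-box letters and 1.86% held ACCGGT. The letters were chosen after the Epcam sequence had been seen, and a match describes these letters and no binding. AGATAA on either strand (TTATCT on the other), 1 form of the letters bound by GATA factors, was also searched. It was in 9.99% of the promoters and in none of the member windows searched. Other forms were not searched, among them AGATAG, which the Cdh6 window printed above holds. RefSeq windows were found for 5 of the 9 members, also for Ctnnb1, Ctnnd1 and Jup, and 1 of the 2 windows of Ctnnb1 held ACCGGT too.

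The next comparisons set the groups against each other gene by gene. A gene was counted if 10% or more of the cells in one of the groups had it above 0, and it was past 2-fold where the log2 ratio of mean TP10k, with a pseudocount of 0.01, reached 1 in size and each plate went the same way. Against 2D, each plate of a block was set against the same culture mean. Among the cultures, with 1 plate each, the ratio alone decided, so their shares rest on a looser rule. The pseudocount understates the ratios of low genes. Over all counted genes the median log2 ratio lay between -0.15 and 0.14 in the 9 comparisons.

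Between the VE and the Epi block, 8 members were counted and 3 were past 2-fold, beside 30.2% of all counted genes (15.1% higher and 15.1% lower). Cdh6 was higher in the VE block (log2 ratio 2.88, 2.44 to 3.30 over the plates), and Cdh3 (-1.56, -2.35 to -0.77) and Epcam (-1.31, -1.42 to -1.18) were lower. Cdh1, at 0.95 (0.75 to 1.15), stood just under the limit and passed it without plate 4 (1.04). The 4 catenins ranged from -0.07 (Jup) to 0.57 (Ctnnd1).

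Between the ExE and the Epi block, 4 of 8 members counted were past 2-fold, beside 22.2% of all counted genes (14.1% higher and 8.08% lower). Cdh1 (2.22, 2.05 to 2.30 over the plates), Cdh2 (1.64, 1.34 to 2.21) and Epcam (1.03, 0.78 to 1.30) were higher in the ExE block and Jup was lower (-1.07, -1.53 to -0.90). Epcam and Jup sat at the limit. Without plate 4 Epcam had 0.91 and Cdh3 passed (-1.26), and with a minimum of 4000 genes per cell Epcam had 0.97. Jup had -0.93 without plate 5, -0.88 in cells led by their own summed marker list and -0.73 in cells with 5000 to 8000 genes. Cdh2 had 0.82 when only cells led by their own summed marker list were kept, which left 60.1% of the ExE block. Ctnna1 (0.73, 0.56 to 1.12) and Ctnnd1 (0.44, 0.03 to 0.99) were higher in the ExE block on each plate but under 2-fold.

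Between the VE and the ExE block all 9 members were counted and 4 were past 2-fold, beside 21.9% of all counted genes (7.9% higher and 14% lower). Cdh6 was higher in the VE block (2.55, 2.09 to 2.97 over the plates), and Cdh1 (-1.28, -1.36 to -1.15), Cdh2 (-2.29, -3.16 to -1.50) and Epcam (-2.34, -2.48 to -2.20) were lower. Jup, at 0.996 (0.94 to 1.13), was just short of the limit, and Cdh3 was lower by a log2 ratio of -0.86 (-1.10 to -0.56). Both passed without plate 3 (1.02 and -1.03), and Jup passed without plate 4 (1.03).

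Against their 2D counterparts, fewer genes were past 2-fold in all, and Epcam, Cdh1, Cdh2, Cdh3 and Jup were the members concerned. In the Epi block against ESC, 1 of 8 members counted was past 2-fold, beside 14.6% of all counted genes (8.38% higher and 6.25% lower), namely Epcam (2.06, 1.74 to 2.29 over the plates). Cdh1 was lower in the Epi block on each plate (-0.67, -0.72 to -0.63). In the VE block against iXEN, 1 of 8 members counted was past 2-fold, beside 8.53% of all counted genes (2.89% higher and 5.64% lower), namely Cdh3, which was lower (-1.27, -1.97 to -0.98) but had -0.96 in cells with 5000 to 8000 genes. Jup had -0.88 (-1.46 to -0.57) there and passed without plate 4 (-1.07), and Cdh6 had -0.63 (-0.74 to -0.53). In the ExE block against iTSC, 3 of 9 members were past 2-fold, beside 17% of all counted genes (8.67% higher and 8.32% lower): Cdh1 (1.36, 1.19 to 1.48) and Cdh2 (1.40, 1.24 to 1.48) were higher and Jup (-1.35, -2.06 to -0.98) was lower in the ExE block. Epcam differed by only 0.26 (0.21 to 0.32) between these trophoblast groups. Cdh2 had 0.54 here when only cells led by their own summed marker list were kept.

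Among the 2D cultures all 9 members were counted, and Cdh1 differed by at most 0.28. In iTSC against ESC, Epcam alone was past 2-fold (2.83), beside 23.5% of all counted genes (15.2% higher and 8.3% lower). In iXEN against ESC, Cdh6 (3.80) and Epcam (1.05) were higher and Cdh2 (-1.34) was lower, 3 members beside 31.4% of all counted genes (16.7% higher and 14.7% lower). In iXEN against iTSC, Cdh6 was higher (3.56) and Epcam (-1.78) and Cdh2 (-1.82) were lower, again 3 members, beside 24.3% (10.1% higher and 14.2% lower). The 3D comparisons share their blocks and the 2D comparisons their cultures, so the lists of members are not independent of each other.

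**Figure D3:**
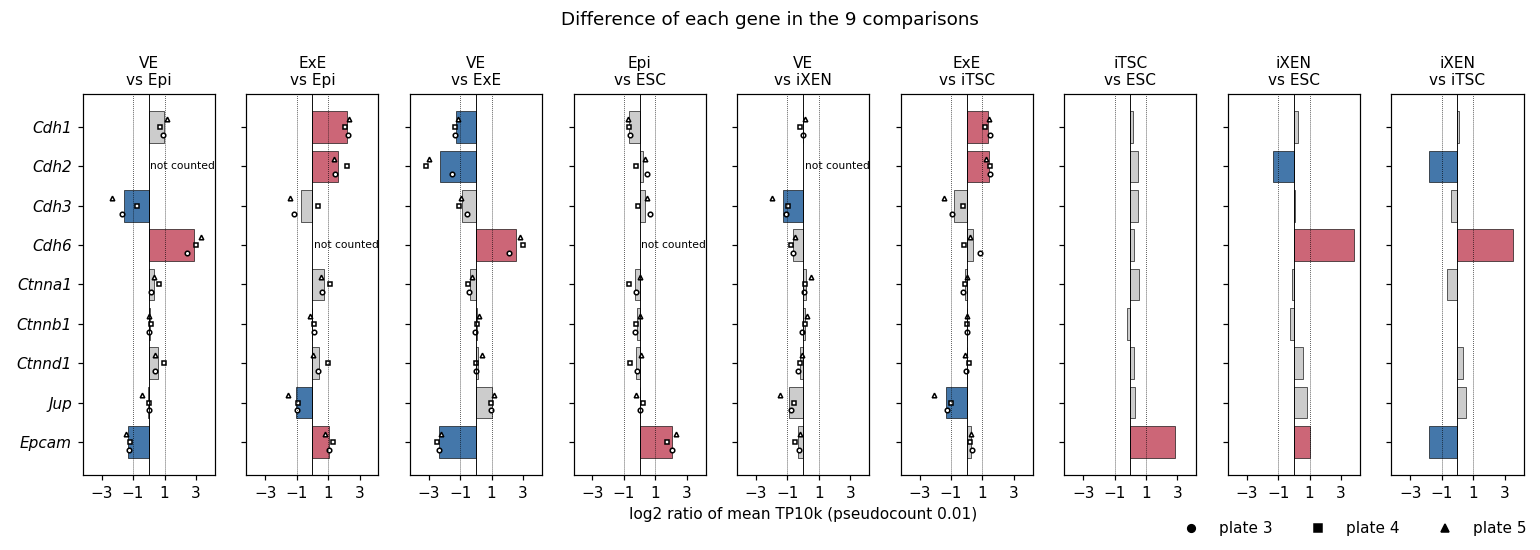
Log2 ratio of mean TP10k with a pseudocount of 0.01 (x axis) of the 9 genes (y axis) in 9 comparisons, the first-named group over the second. Red and blue bars are past 2-fold in the higher and lower direction (with each plate the same way where a block is compared), grey bars are not, symbols are plates 3, 4 and 5, dotted lines mark 2-fold, and genes above 0 in too few cells are written as not counted. Ctnnb1 stays near 0 in each panel while Cdh6 and Epcam reach 3.80 and 2.83.

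Summed over the 4 members, the cadherins differed between groups and the catenins hardly did. The cadherin sum was 0.435 TP10k in the Epi block, 0.776 in the VE block and 1.76 in the ExE block, and 0.619, 0.732 and 0.862 in ESC, iTSC and iXEN. The catenin sum lay between 8.27 and 9.52 in the 6 groups. Catenin transcripts therefore outnumbered cadherin transcripts 18.98 to 1 in the Epi block (16.5, 18.9 and 21.7 on plates 3, 4 and 5), 11.6 to 1 in the VE block (10.2, 13.2 and 11.6) and 5.08 to 1 in the ExE block (4.57, 5.65 and 5.14), and 15.1, 12.997 and 10.5 to 1 in ESC, iTSC and iXEN. These are transcript ratios and say nothing of the proteins.

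The mix of cadherins showed what each group had beside Cdh1. Cdh1 made up 78.3% of the cadherin sum in the Epi block (73.7, 85.03 and 76.7% on plates 3, 4 and 5), 85.8% in the VE block (83.9, 85.1 and 88.4%) and 92.6% in the ExE block (92.8, 90.4 and 94.3%). It made up 88.8% in ESC, 85.6% in iTSC and 77.8% in iXEN. The second cadherin was Cdh3 in the Epi block (16.5%), ESC (8.58%) and iTSC (10.5%), Cdh6 in the VE block (10.7%) and iXEN (15.6%), and Cdh2 in the ExE block (4.79%). Epcam exceeded Cdh1 in 5 of the 6 groups, by 5.26 to 1 in the Epi block, 4.88 in iTSC, 2.26 in the ExE block, 1.32 in iXEN and 1.08 in the VE block, but in ESC the ratio was 0.769 to 1. Between the carriers of the cadherin tail, the ratio of Ctnnb1 to Jup was 16.5 to 1 in the ExE block (14.98, 12.7 and 27.96), 8.45 in the VE block (7.27, 6.80 and 13.998), 7.78 in the Epi block (7.14, 6.36 and 10.5) and between 4.28 and 9.04 in the cultures. On each plate the ExE block was the highest, although plate 5 of the VE block overlapped with plate 4 of the ExE block.

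**Figure D4:**
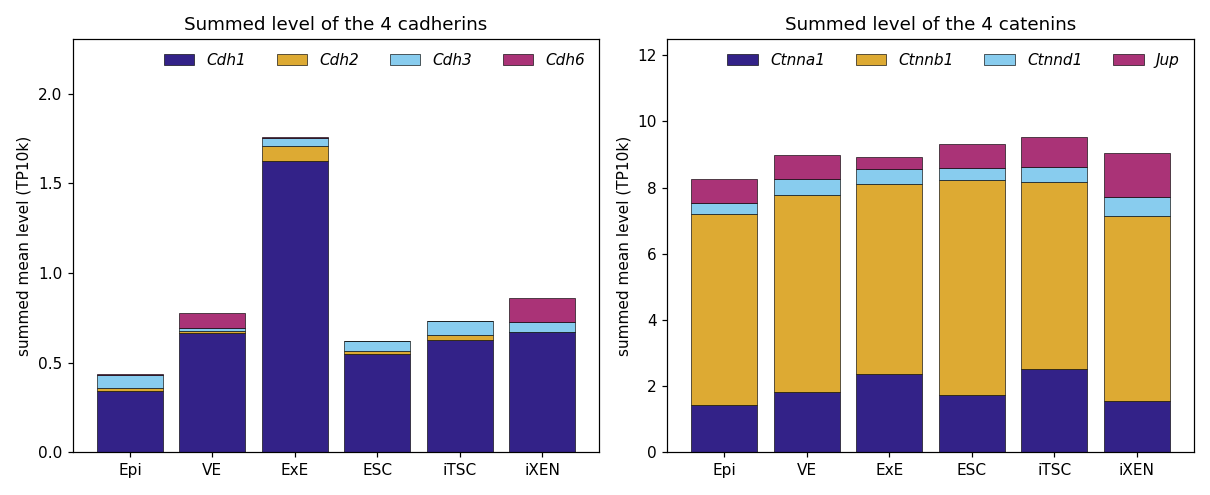
Summed mean level in TP10k (y axis, from 0, a different scale in each panel) of the 4 cadherins (left) and the 4 catenins (right) in the 6 groups (x axis), with each gene as a coloured segment. The cadherin sum ranges from 0.435 in the Epi block to 1.76 in the ExE block, and the catenin sum from 8.27 to 9.52.

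Single cells mostly held 1 or 2 of the 4 cadherins. Cdh1 alone was detected in 42.7% of the Epi block (interval 37.1 to 48.4%), 48.6% of the VE block (42.9 to 54.2%) and 62.04% of the ExE block (56.8 to 67.1%). None of the 4 was detected in 84 cells of the Epi block (26.8%, 21.9 to 32.01%), 19 of the VE block (6.03%, 3.67 to 9.26%) and 2 of the ExE block (0.567%). No cell of any group had all 4. The cells of the Epi block without any had a median of 4111 genes. The culture cells had more genes per cell than the blocks, so that no order between blocks and cultures is read from shares of cells.

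Some cells held a pair of cadherins, and for 4 of these shares the product of both single shares is given too. Cdh1 and Cdh6 were found together in 37.1% of the VE block (product 36.03%) and 77.3% of iXEN (77.5%), and Cdh1 and Cdh3 in 19.1% of the Epi block (15.7%). Of the 5 cells of the Epi block with Cdh6, 1 had Cdh1. Of the 83 cells of the ExE block with Cdh2, 74 also had Cdh1 (89.2%), so that 20.96% of all its cells held both (interval 16.8 to 25.6%), close to the 22.6% that the product of the shares gives. The share with Cdh1 and Cdh2 was 6.05% in the Epi block (3.68 to 9.29%) and 1.59% in the VE block (0.517 to 3.67%). In the cultures it was 20.4% in ESC (14.1 to 27.995%) and 18.4% in iTSC (12.4 to 25.8%), while 0 iXEN cells held both. Cdh2 and Cdh6 were found together in 4 cells of the ExE block and 3 of the VE block. In iXEN, 36.2% of the cells held Cdh1, Cdh3 and Cdh6 (28.3 to 44.7%).

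**Figure D5:**
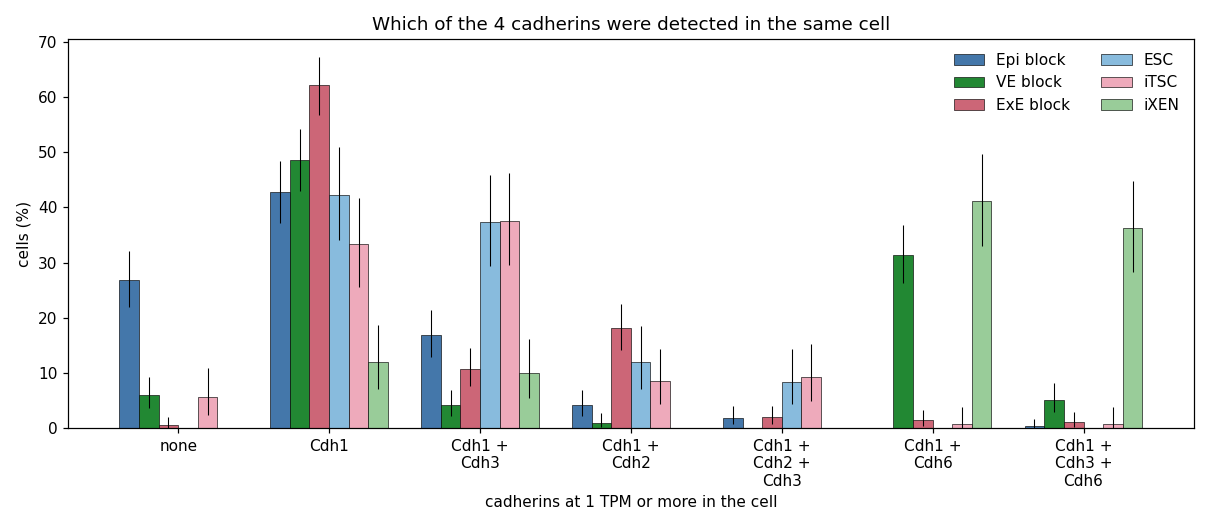
Share of cells in percent (y axis, from 0) with the combination of cadherins named on the x axis, each at 1 TPM or more and the others of the 4 below it, in the 6 groups; 7 combinations are drawn. Lines are exact 95% binomial intervals. Among the blocks, cells without any of the 4 are most frequent in the Epi block (26.8%), and the combinations with Cdh6 in the VE block (31.4% with Cdh1 and Cdh6) and iXEN (41.1%).

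Within a block the measured levels of the members were largely unrelated from cell to cell. Cdh2, Cdh3 and Cdh6 were undetected in most cells of each block, so low correlations do not show that the members vary independently. Pearson's r of Cdh1 with Epcam, over the log levels of all cells of a block, was 0.27 in the ExE block, 0.14 in the Epi block and 0.05 in the VE block, and the highest r of any pair in the 6 groups was that of Cdh1 with Cdh3 in iXEN (0.39). The cells of a group share a plate or pool, and r of Cdh1 with the number of genes was between -0.05 and 0.14 in the 6 groups. Splits of the blocks by marker genes moved some members the same way on each plate, and those are given here, while the other members differed in direction between plates. With so few plates some members do so by chance, and the share of all genes that did so was not computed. None of these differences was tested. Cells of the VE block with Nodal or Lefty1, which mark its distal and anterior part, had more Epcam (0.988 TP10k over 79 cells, 25.1% of the block) than the others (0.628), and also more Cdh1 (0.721 and 0.647) and Ctnnb1 (6.73 and 5.70). Cells of the Epi block with Otx2 (53.5% of them) had 2.05 TP10k of Epcam and 6.11 of Ctnnb1, and those without had 1.498 and 5.37. A split of the Epi block by Tfap2c gave only Ctnnb1 (5.52 with and 5.92 without). In the ExE block the cells with 2 or more of Cdx2, Elf5 and Eomes (50.7%) had 0.0480 TP10k of Cdh2 and the others 0.121, and they were also lower in Cdh6 (0.000967 and 0.0111) and Ctnnb1 (5.18 and 6.33). The cells with the named genes had the higher median number of genes in the splits by Nodal or Lefty1, by Otx2 and by Cdx2, Elf5 and Eomes (5524 and 5252.5, 4970.5 and 4633, and 5810 and 4916), and the part of depth in these differences was not tested.

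The 38 cells of the ExE block in which another marker list led had 1.19 TP10k of Cdh1, 0.139 of Cdh2, 0.0283 of Cdh6, 0.506 of Jup and 2.89 of Epcam. The cells led by the ExE list had 1.68, 0.0776, 0.00327, 0.329 and 3.77, in the same order of genes. Without such cells in all groups, the count of members past 2-fold was 3 for the VE against the Epi block, 4 for the ExE against the Epi block and 5 for the VE against the ExE block, where Jup joined (1.07). The shares of all counted genes were 30.9%, 22.6% and 23.5% in the same order.

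Of 40 other cadherins, protocadherins and desmosomal cadherins, most were too rare to be counted. In the VE against the Epi block 9 were counted, 4 higher and 1 lower, with a median log2 ratio of 0.00 over the list. Dsg2, a desmoglein, had 0.4402 TP10k in the VE block, 0.177 in the ExE block and 0.0737 in the Epi block (VE against Epi 2.43, ExE against Epi 1.163). Dsc2, a desmocollin, had its highest level in the ExE block (0.266) and 0.0115 in the Epi block, a log2 ratio of 3.69 (3.17 to 4.01 over the plates). In the ExE against the Epi block 8 were counted and Dsg2 and Dsc2 were the 2 that were higher, with none lower. Fat1, a giant atypical cadherin, was lower in the VE block (0.0649) than in the Epi block (0.280) and the ExE block (0.365). Between the VE and the ExE block 3 of 9 were higher and 2 lower. Against 2D, the counts were 0 higher and 1 lower of 13 in the Epi block against ESC, 1 and 1 of 13 in the VE block against iXEN, and 1 and 4 of 16 in the ExE block against iTSC, where Cdh4 was lower (0.0243 and 0.168). In the cultures, 5 were higher and 2 lower of 20 in iTSC against ESC, 4 and 0 of 16 in iXEN against ESC, and 1 and 3 of 18 in iXEN against iTSC. The shares of all counted genes past 2-fold either way stand beside these counts. They were 30.2% (VE against Epi), 22.2% (ExE against Epi) and 21.9% (VE against ExE). Against 2D they were 14.6% (Epi), 8.53% (VE) and 17% (ExE). Among the cultures they were 23.5% (iTSC against ESC), 31.4% (iXEN against ESC) and 24.3% (iXEN against iTSC). No list was tested against these shares.

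Of 22 genes for other parts of cell junctions, 15 were counted in the VE against the Epi block, with 3 higher and 4 lower and a median log2 ratio of -0.23 over the list, beside -0.06 over all counted genes. Ctnnal1, a relative of alpha-catenin, was lower in the VE block (0.151 and 0.718 TP10k, log2 ratio -2.17), as was Plekha7 (-1.54), a partner of p120-catenin. Adam10, a protease that can cut cadherins, was higher there (0.334 and 0.109). In the ExE against the Epi block, 6 of 18 were higher and 1 was lower (median -0.02, beside 0.09). The desmosomal genes Perp (0.532 and 0.0561, log2 ratio 3.04) and Dsp (0.274 and 0.0298, 2.83) and the actin linker Vcl (0.314 and 0.144, 1.08) were higher, and Lima1 was lower (-1.35). Between the VE and the ExE block 3 of 18 were higher, among them Nectin2 (1.63 and 0.715), and 7 were lower. Against 2D, 3 of 17 were higher in the Epi block, among them Afdn (1.14 and 0.525 in ESC), which links nectins to actin, and none was lower. In the VE block against iXEN 1 was higher and 2 were lower of 18, and in the ExE block against iTSC 1 was higher and 3 were lower of 20, with Perp at 0.532 and 2.47 in iTSC. In the cultures, 6 of 19 were higher and none lower in iTSC against ESC, 4 higher and 1 lower of 18 in iXEN against ESC, and 0 higher and 3 lower of 20 in iXEN against iTSC. These counts too stand beside the shares of all counted genes given with the other cadherins, and were not tested against them.

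Of 14 regulators and markers of the epithelial-mesenchymal transition, 10 were counted in the VE against the Epi block, with 3 higher and 4 lower, beside 30.2% of all counted genes past 2-fold either way. For the other comparisons of this list the shares given with the other cadherins apply. Snai1, a repressor of Cdh1, was higher in the VE block (0.267 TP10k, 0.151 to 0.392 over the plates) than in the Epi block (0.0124) and the ExE block (0.0424), and had 0.432 in iXEN, where Cdh1 was at 0.671. Grhl2, a Grainyhead-like activator of epithelial genes, was lower in the VE block (0.0280) than in the Epi block (0.170), and Fn1, which encodes fibronectin, had 0.196 there and 2.30 in the Epi block. In the ExE against the Epi block 3 of 7 were higher and 1 was lower: Vim, the intermediate filament of mesenchymal cells, had 1.57 and 0.389, Grhl3 0.280 and 0.0669, Esrp2 0.164 and 0.0416, and Fn1 0.686 and 2.30. The mesenchymal marker Vim and the epithelial Grhl3 and Esrp2 were thus higher than in the Epi block in the same block as Cdh1, Cdh2 and Epcam. Esrp2 also had 0.150 in the VE block, where Cdh2 and Epcam had their lowest means of the blocks. Between the VE and the ExE block 2 of 10 were higher and 5 lower. The Epi block had 2 of 11 higher and 1 lower than ESC, with Grhl2 at 0.170 and 0.0222, Esrp1 at 0.114 and 0.00221, and Vim at 0.389 and 2.19. In the VE block against iXEN the counts were 2 and 2 of 11, and in the ExE block against iTSC 0 and 1 of 12 (Snai1, 0.0424 and 0.156). In the cultures they were 5 and 1, 4 and 5, and 1 and 4 of 12 in iTSC against ESC, iXEN against ESC and iXEN against iTSC.

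Of 12 target genes of beta-catenin, 4 were counted in the VE against the Epi block and in the ExE against the Epi block, with 0 higher and 2 lower each, namely Tcf7 (0.275 TP10k in the Epi, 0.0408 in the VE and 0.0867 in the ExE block) and Lef1 (0.131, 0.00761 and 0.0145), which encode partners of beta-catenin on DNA. Of 3 counted between the VE and the ExE block none was past 2-fold. In the Epi block against ESC, 1 of 8 was higher (Lef1, 0.131 and 0.00857) and 3 were lower, among them Notum (0.0414 and 0.266). The VE block differed from iXEN in 0 of 6 and the ExE block from iTSC in 1 of 8, which was lower. In the cultures 1 was higher and 1 lower of 9 in iTSC against ESC, 1 and 3 of 9 in iXEN against ESC, and 1 and 2 of 9 in iXEN against iTSC, with Notum at 0.00625 in iTSC and 0.00184 in iXEN. So few genes were counted that these numbers are not set apart from the shares given with the other cadherins.

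The genes whose level was most like that of a member were sought over 12 points, the 3 blocks on 3 plates and the 3 cultures, by Pearson's r of log2 mean TP10k with the pseudocount. The points share pools, plates and groups, and the values describe a ranking only. For Cdh1 they were Hoxd9 (0.98), Hoxa7 (0.98) and Tmem109 (0.97), with Hoxa7 at 0.467 TP10k in the ExE block and 0.000325 in the Epi block. For Cdh2 they were Bves (0.95), Tcf20 (0.93) and Ndufs5 (0.92), and Bves, which encodes a membrane protein of cell contacts, had 0.323 in the ExE block and at most 0.0541 elsewhere. For Cdh3 they were Frrs1 (0.95), Melk (0.93) and Slc9b1 (0.93), for Cdh6 Gdpd5, Kdelr3 and Vps35 (each 0.98), and for Epcam Gstz1 (0.98), Ccl27a (0.96) and Timm21 (0.96). Kdelr3, which returns proteins to the endoplasmic reticulum, had 4.37 in the VE block and 6.72 in iXEN and at most 0.559 in the other groups.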

How the data were processed

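The data were SMART-seq2 libraries of sorted single cells, without molecular identifiers. According to the methods and the labels, the authors demultiplexed reads with bcl2fastq 2.20, pseudoaligned them with kallisto to the GRCm38 transcriptome (Gencode), summarised them per gene and removed mitochondrial, ribosomal and pseudogenes. The deposited values are TPM per gene and well. Here TPM were rescaled to 10000 per cell (TP10k) and averaged over cells with at least 2500 genes above 0. Raw counts were not used here, so the depth in reads is unknown and the number of genes per cell (2504 to 11195) stands for it; 39 wells hold no values and 32 sum to 0. Groups came from the labels, and for the blocks of the embryoids from the well column. Ratios used a pseudocount of 0.01 and the 2-fold rule given in the text, with no test, since each condition was 1 sample. Shares carry exact (Clopper-Pearson) 95% intervals. The ratio script was tested on simulated data.

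The members and gene lists were chosen with earlier results of these data known. Named were the 9 members, from each other list up to 4 genes per comparison with the highest mean among those past 2-fold by the rule in the text and at 0.1 TP10k or more, and the 3 genes most like Cdh1, Cdh2, Cdh3, Cdh6 and Epcam. Hoxa7, Bves and Kdelr3 were singled out after their values were seen. The alternatives tried were a minimum of 4000 genes, genes counted from 1 TPM, cells with 5000 to 8000 genes, cells led by their own markers (summed or standardised), each plate left out, mean TPM, means without the highest 1% of cells, pseudocounts of 0.001 and 0.1, no filter, log means, and other detection limits. Python 3.11.15, numpy 2.4.6, scipy 1.17.1 and pandas 2.3.3 were used.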

Additional observations from a re-analysis of the deposited data

Results flagged for a closer look

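Cdh1 differed from 2D in opposite directions in 2 lineages. It was higher in the ExE block than in iTSC on each plate (log2 ratio 1.36) and lower in the Epi block than in ESC on each plate (-0.67). Epcam was higher in the Epi block than in ESC (2.06) and in the ExE block than in iTSC (0.26), and lower in the VE block than in iXEN (-0.30), each time with all 3 plates the same way. These 3 pairs were picked out because the plates of one lineage went the opposite way to those of another. The differences between lineages were not tested, since each culture was 1 sample.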

How the results depend on the processing

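No paired analysis was possible because no result comes from a test. The 3 blocks share plates 3, 4 and 5, and the ratios within each plate stand in the report. Of the alternative values of the 21 main results, all but 19 stayed within the limits (1.5-fold for counts, the spread of plates or the binomial interval otherwise), and none of the 23 differences past 2-fold changed its direction. A count can stay the same while its members change. Cdh2 and Cdh3 fell under 2-fold in every comparison where they had passed, both with a pseudocount of 0.1 and with log means. With a pseudocount of 0.1 Cdh6 also fell under it in the VE against the Epi block (0.84) and the VE against the ExE block (0.79), but not among the cultures. So did Epcam in the ExE against the Epi block (0.997) and in iXEN against ESC (0.91), and Jup in the ExE against the Epi block (-0.91). With log means Cdh2 had 0.63 (ExE against Epi), 0.33 (ExE against iTSC), -0.83 (VE against ExE), -0.49 (iXEN against ESC) and -0.57 (iXEN against iTSC). A pseudocount of 0.1 lowered the number of members past 2-fold to 1 for the ExE against the Epi block, 1 for the VE against the Epi block, 2 for the VE against the ExE block, 0 for the VE block against iXEN and 1 for iXEN against ESC. The shares of all counted genes fell as well, to 10.3%, 16.02%, 10.1%, 2.38% and 14.2% in the same order. A pseudocount of 0.001 gave 2 members for iTSC against ESC, beside 31.9% of all counted genes. With the difference of mean log2(TPM + 1), which weights detection, the count was 4 for the Epi block against ESC, where Cdh1 (-1.84), Ctnnd1 and Jup joined Epcam, and 4 for the VE block against iXEN, where Cdh6, Ctnnd1, Jup and Epcam passed and Cdh3 (-0.98) did not. The shares of all counted genes rose as well, to 39.6% and 29.4%, from 14.6% and 8.53% in the main comparisons. With cells led by their own summed markers the count was 2 for the ExE against the Epi block, beside 21.9% of all counted genes, and 14.6% of the ExE block held Cdh1 and Cdh2. With 5000 to 8000 genes per cell, which left 6 ESC, iTSC against ESC had 2 members, beside 44.6% of all counted genes. Cdh1 then made up 84.6% of the cadherin sum in ESC and 88.4% in the VE block, and without the highest 1% of cells the latter was 88.8%. Counting Cdh1 and Cdh2 as detected from 5 TPM left 5.63% of ESC, 16.1% of the ExE block and 9.93% of iTSC with both, and above 0 TPM 28.9% of ESC. The cause of these shifts was not tested where none is given. Leaving out a plate gave 1 to 2 members for the VE block against iXEN (2 without plate 4, with Jup), 3 to 4 for the VE and for the ExE against the Epi block and for the ExE block against iTSC, 4 to 6 for the VE against the ExE block and 1 in each case for the Epi block against ESC. The shares of all counted genes were then 8.81 to 10.6% for the VE block against iXEN and 16.6 to 19.1% for the ExE block against iTSC. They were 30.7 to 31.9% for the VE and 22.9 to 23.3% for the ExE against the Epi block. For the VE against the ExE block they were 22.5 to 23.35%, and for the Epi block against ESC 15.4 to 15.9%. Leaving out a plate also gave Cdh1 shares of 75.2 to 80.7%, 84.5 to 86.8% and 91.7 to 93.5%, and shares of cells with Cdh1 and Cdh2 of 3.76 to 7.25%, 0.980 to 1.92% and 16.9 to 23.4%, in the Epi, VE and ExE blocks. Keeping cells led by standardised markers was added after the data had been seen and moved no count by more than 1.5-fold. A low gene that is not detected in a cell is not shown to be absent from it.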
